A study of Mus musculus with 16 samples.

Results

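The comparison set 4 arrays of 1-month-old nm3342 mutant mice against 4 arrays of wild-type mice of the same age. These 8 arrays are among 16 in the series, which also holds 4 mutants and 4 wild types of 1 year. Per the labels, every mouse was male and on a C57Bl/6J background, and the 1-month mice were killed at postnatal day 30. The labels give the mutation only by its line name, nm3342, and name no mutated gene, so no targeted gene could serve as a check of the genotype. They describe the 1-month mutants as mice with a serous retinal detachment, and the nm3342 line is presented as a possible model of that condition. RNA of the retina and of the retinal pigment epithelium (RPE) was measured together, and 1 array was hybridised per sample. All 55681 non-control probes of the array were compared, and 19021 named genes had a probe bright enough to be tested.

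In a serous detachment, fluid gathers between the photoreceptors and the RPE, the pigmented layer that supports them and pumps fluid towards the choroid. The retina holds few immune cells in health: resident microglia, and macrophages along its vessels. After injury these cells, and cells entering from the blood, express interferon-response, antigen-presentation and chemokine genes. Müller glia, the radial support cells of the retina, raise stress genes such as Gfap.

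Between 82.1% and 89.6% of the spots on the 8 arrays were well above background, and no spot was saturated. The number of arrays, 4 per group, limits the precision. Levels are log2 signals minus the 75th percentile of the array, so that 0 is that percentile, and differences are mutant minus wild type on the same log2 scale. Errors are SDs beside group means (n = 4) and standard errors of the limma model beside differences. A gene was called, and is described as having risen or fallen, where limma's p, adjusted by Benjamini and Hochberg's method over all genes tested, was under 0.05. The tissue check showed the defining genes of photoreceptors and RPE on every array: the mean level of 24 rod genes ran from 5.38 to 5.66 and that of 14 RPE genes from 2.58 to 3.37.

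Some arrays stood apart. Mutant replicates 2 and 3 went against the label of male sex: the level of Xist, a marker RNA of female cells, was -0.38 to -0.14 on them and between -8.02 and -5.68 on the other 6 arrays. The Y-linked gene Ddx3y lay at or below -8.12 on both and at or above 0.69 on the others. Of the 1-year arrays, mutant replicate 1 had the same pattern (Xist -0.03, Ddx3y -8.47). Every fit given as without mutant replicates 2 and 3 together, or without the arrays with a female pattern, also left out that 1-year array. The sex covariate marked it too. Other replicate numbers are those of 1-month arrays. Mutant replicate 4 carried more RNA of blood and smooth muscle, with a mean of 3.84 over 5 erythrocyte genes against -2.03 to 0.50 on the other 7 arrays, and 0.26 over 10 pericyte and smooth muscle genes against -0.69 to -0.51. The mean of 19 lens genes spread widely among the mutants, at 1.19, 3.87, 2.68 and 5.73 on replicates 1 to 4, against 4.11 to 4.73 in wild type. All 19 lens genes had negative differences (median -0.79) and none was called. Wild-type replicate 1 was the lowest of all 8 in the RPE (2.58), pigment (1.00) and fibroblast (0.72) list means. Counts that lead a paragraph on all genes, all probes or a gene list are therefore also given without such arrays where they move by more than 1.5-fold. Counts by chromosome, along chromosome 8, for probes with no gene and of genes called at both ages were not recounted in those fits.

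Of the 19021 genes, 518 were called (2.72%): 386 were higher in the mutant (2.03%) and 132 lower (0.694%). At least a 2-fold difference was found for 99 of them, 72 higher and 27 lower. The 4 mutant arrays all lay above the 4 wild-type arrays for 5.85% of the genes tested and all below for 2.69%. The median difference over all genes was 0.02. Without mutant replicates 2 and 3 the count of calls was 133, with 100 higher, and with their sex pattern as a covariate it was 244. Without mutant replicate 4 it was 931, of which 59.9% were higher, against 74.5% of the 518. Leaving out mutant replicate 1, 2 or 3 gave 227, 309 or 299 calls, and leaving out wild-type replicate 1, 2 or 3 gave 277, 325 or 290. Of single arrays only wild-type replicate 4 left the count near the full value, at 497. All 518 genes kept their direction in each of these fits.

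Of the genes with large falls, 3 were low on all 4 mutant arrays with little spread. The noncoding RNAs BC006965, well above background on all 4 wild-type and 0 mutant arrays, and 2610035D17Rik (-1.90) also fell, and carry clone names that the rule for named genes leaves out. Omg encodes the oligodendrocyte-myelin glycoprotein, a membrane-anchored inhibitor of neurite outgrowth. Its level was 1.09, 1.25, 1.24 and 1.50 on wild-type replicates 1 to 4 and -1.23, -1.13, -0.92 and -1.43 on mutant replicates 1 to 4. The groups were separated by 2.01 log2 units at their closest, and the fall of 2.45 ± 0.14 was 5.46-fold (adjusted p = 8.11e-07). Etnppl, the phospholyase that breaks down phosphoethanolamine, was at 2.53, 2.76, 2.51 and 2.75 in wild type and at 0.73, 0.73, 0.48 and 0.59 in the mutant. It fell 4.02-fold (-2.01 ± 0.14, adjusted p = 2.27e-06). Prkcq, which encodes protein kinase C theta, was at -0.99, -0.60, -0.66 and -0.69 in wild type and at -2.42, -2.30, -2.24 and -2.32 in the mutant, a fall of 1.58 ± 0.10 on the log2 scale (adjusted p = 1.12e-06). None of these groups overlapped, and no single array carried the difference: the 3 genes were called in all 8 fits that left out 1 array.

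Each of these genes was alone, or nearly so, within its family. Of 9 protein kinase C genes tested, Prkcq was the only one called, and the median over the 9 was 0.11. Of 11 oligodendrocyte genes Omg alone was called, with Mbp, the myelin basic protein gene, at 0.00 ± 0.13 (adjusted p = 0.999). Of 12 genes of phosphoethanolamine and choline metabolism Etnppl and Phospho1, a phosphatase of phosphoethanolamine, were called, both lower. Phospho1 fell by 0.99 ± 0.25 (adjusted p = 0.0478), and its groups overlapped.

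Both amylase genes and 1 of 12 glycogen enzyme genes fell. Amy1, a salivary-type amylase gene, was at 3.17, 3.19, 3.30 and 3.39 in wild type and at 0.87, 1.50, 0.54 and 1.99 in the mutant. The wild-type arrays agreed within 0.23 log2 units while the mutant arrays spread over 1.45, yet the groups did not overlap, and the fall was 2.04 ± 0.24 (adjusted p = 0.000377). Amy2a5, a pancreatic-type amylase gene of near-identical sequence to its relatives, fell by 1.93 ± 0.24 (adjusted p = 0.000667) and was likewise highest in the mutant on replicate 4. Cross-hybridisation between the amylase probes was not tested. Gaa, the lysosomal acid glucosidase that degrades glycogen, was at 4.23, 4.38, 4.33 and 4.40 in wild type and at 3.16, 3.06, 3.09 and 2.90 in the mutant. It fell by 1.28 ± 0.08 (adjusted p = 1.12e-06), and its second probe gave -0.56 and was not called. Of the 14 amylase and glycogen genes tested these 3 were called and none was higher. The median over the 14 was -0.06.

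Further single genes fell by more than 1 log2 unit. Selenbp1, a methanethiol oxidase that binds selenium, had wild-type levels of 3.07, 2.65, 3.13 and 3.08 and mutant levels of 1.49, 1.60, 1.35 and 1.62 (-1.47 ± 0.13, adjusted p = 3.23e-05). Folh1, a folate hydrolase that also cleaves N-acetylaspartylglutamate, fell by 1.47 ± 0.15 (adjusted p = 0.000144). Adamts18, a secreted metalloprotease active in eye development, fell by 1.56 ± 0.19 (adjusted p = 0.000529). The 4 mutant arrays lay below the 4 wild-type arrays for each of the 3. Dimmer genes among the largest falls were the germ-cell helicase gene Ddx4 (-1.35 ± 0.26), Prps1l1 (-1.46 ± 0.35, well above background on 2 of the 4 mutant arrays) and Potegl (-1.28 ± 0.27).

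**Figure D1:**
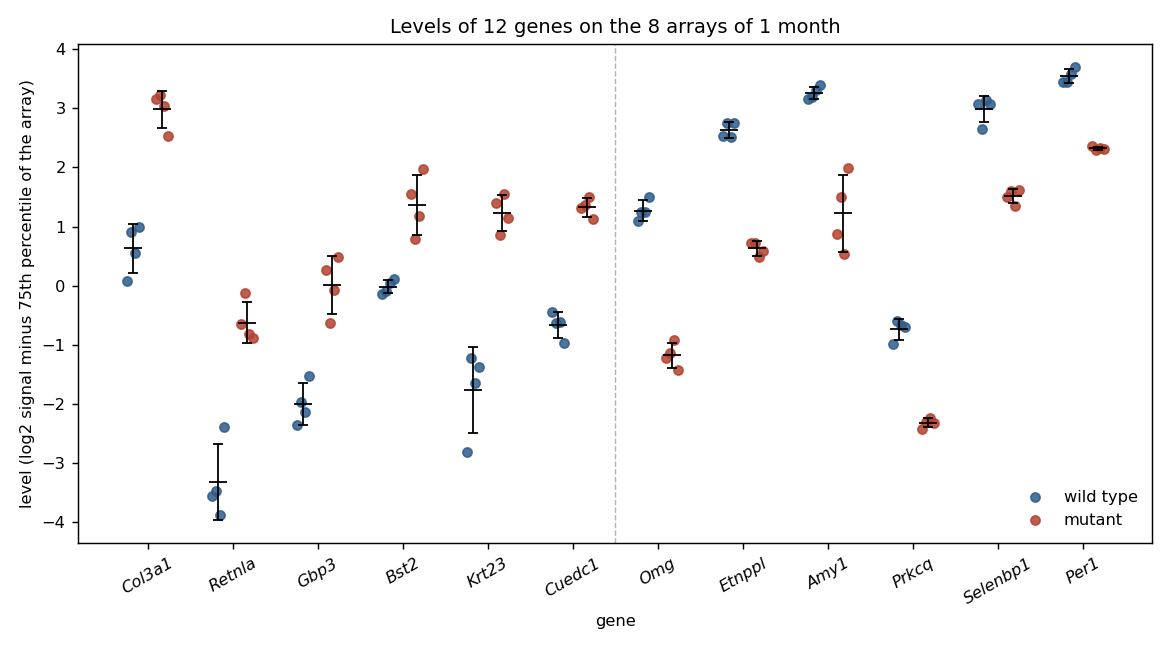
Levels of 12 genes on the 4 wild-type (blue) and 4 mutant (red) arrays of 1 month, as log2 signal minus the 75th percentile of the array. Bars give the mean and SD of 4 arrays, genes left of the dashed line were higher in the mutant and genes right of it lower, and for each gene shown the 2 groups do not overlap.

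The glucocorticoid list held 18 targets raised by the hormone and 4 receptor or enzyme genes. Of the targets 6 fell and 0 rose, against 0.694% of all genes that fell, and none of the other 4 was called. The median over all 22 was -0.29, with 17 of 22 differences negative. Per1, a core clock repressor and a direct glucocorticoid target, was at 3.45, 3.45, 3.59 and 3.71 in wild type and at 2.36, 2.29, 2.33 and 2.31 in the mutant, with 0.06 log2 units between the highest and lowest mutant array. It fell by 1.23 ± 0.12 (adjusted p = 0.000108). Fkbp5, a co-chaperone that restrains the glucocorticoid receptor, was at 2.05, 1.93, 2.0 and 2.16 in wild type and 1.25, 1.32, 1.25 and 1.35 in the mutant (-0.74 ± 0.09, adjusted p = 0.000491). Neither pair of groups overlapped, and both genes were called in all 8 fits that left out 1 array.

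The other members called were Sult1a1, a sulfotransferase (-1.08 ± 0.12), Plin4, a lipid droplet coat protein (-0.94 ± 0.22), Nfkbia, the inhibitor of NF-kappa-B (-0.49 ± 0.11), and Cebpd, a stress transcription factor (-1.21 ± 0.30, adjusted p = 0.0446). In the 8 fits that left out 1 array, Sult1a1 was called in 8, Nfkbia in 4, and Plin4 and Cebpd in 1 each. Other targets, chosen after their values were seen, did not pass: Tsc22d3 was at -0.66, Sgk1 at 0.16 and Mt1 at 0.36. Without mutant replicates 2 and 3 the count was 4 lower, and without mutant replicate 4 it was 5 lower and 1 higher. It was 3 lower without mutant replicate 1 or without wild-type replicate 2, 3 or 4. Of 19 clock genes only Per1 and Ciart, a repressor of the clock, were called, with Ciart falling by 0.67 ± 0.11 (adjusted p = 0.00536). The activators Clock (-0.04 ± 0.10) and Arntl (-0.01 ± 0.09) were not called. The labels do not give the time of day at which mice were killed. No member of the 16 immediate early genes was called, and Fos (-0.61 ± 0.38) and Egr1 (-0.96 ± 0.47) overlapped between groups.

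Among the rises, the interferon-response list held the most calls, and it was also the longest list. Its share of members called higher, 35.9%, was exceeded in shorter lists such as pigment genes (50%) and interferon-inducible GTPases (42.9%). Interferons bind receptors whose signal switches on antiviral effectors through a promoter element called the interferon-stimulated response element (ISRE). Of 39 genes of interferon signalling and antiviral defence tested, 14 rose and 0 fell, against 2.03% of all genes that rose. The median was 0.62, and 36 of 39 differences were positive. In 27 of the 39 all mutant arrays lay above all wild-type arrays, against 5.85% of all genes. Because the samples are bulk tissue, more cells of a type and more RNA per cell cannot be told apart here or in the cell-type lists that follow.

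To show what the members share beyond their values, the promoter windows of RefSeq (build GRCm38.p6, 250 bases before to 50 after the start) were searched on both strands for the ISRE-like letters GAAA, any 2 bases, GAAA. Of 32851 windows, 3.44% held them, and of the 27025 genes with a window 3.99% held them in any window. Of the 53 tested members of the antiviral and GTPase lists, 38 had a window, and 22 of these genes held the letters. Of the 14 called members with a window 10 did, and of the 24 not called 12 did. The windows were also searched for letters like the glucocorticoid response element: G, any base, ACA, any 3 bases, TGT, any base, C. Of all genes with a window 0.54% held them. Of the 18 glucocorticoid list genes with a window 2 did, and of the 5 called ones 0 did. A match is a description of letters, not a binding site. The stretches around the ISRE-like match are shown for 5 called interferon members, 5′ to 3′ of the gene. Matched letters of either strand are in capitals.
Bst2 (chr8:71537555-71537634, minus strand): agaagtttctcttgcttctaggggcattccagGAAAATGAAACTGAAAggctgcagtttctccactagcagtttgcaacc
Ifitm3 (chr7:141010695-141010774, minus strand): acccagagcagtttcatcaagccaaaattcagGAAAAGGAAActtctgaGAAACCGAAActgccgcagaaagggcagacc
Gbp3 (chr3:142559967-142560046, plus strand): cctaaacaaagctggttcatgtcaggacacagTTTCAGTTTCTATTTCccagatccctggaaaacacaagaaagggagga
Irgm1 (chr11:48871403-48871482, minus strand): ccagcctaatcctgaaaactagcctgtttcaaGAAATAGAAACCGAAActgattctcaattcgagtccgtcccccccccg
Gbp2 (chr3:142620569-142620648, plus strand): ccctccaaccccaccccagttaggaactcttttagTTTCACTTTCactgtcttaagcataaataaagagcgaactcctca

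Bst2, the tetherin that holds budding virus on the cell surface, was at -0.13, -0.08, 0.04 and 0.12 in wild type and at 1.55, 0.79, 1.18 and 1.97 in the mutant. The wild-type arrays were tight, all 4 mutant arrays lay above them, and the mutant array highest in blood genes, replicate 4, was the highest here too. Bst2 rose by 1.39 ± 0.19 (adjusted p = 0.00159). Ifi27l2a, a small interferon-induced membrane protein, was at -0.40, 0.41, -0.19 and 0.30 in wild type and at 1.76, 1.42, 1.49 and 2.03 in the mutant (1.64 ± 0.24, adjusted p = 0.00231). Oasl2, a sensor-like oligoadenylate synthetase (1.37 ± 0.25), Rtp4, a receptor transporter protein (1.32 ± 0.24), Ifitm3, a block to viral fusion (1.09 ± 0.20), and Xaf1 (0.85 ± 0.12) also rose, each without overlap. The second probe of Xaf1 was at 0.20 and not called, and Xaf1 was not called on the mean of its probes. Irf7 was at 0.51 ± 0.23 with overlapping groups (adjusted p = 0.316). The list count was 10 when mutant replicates 2 and 3 were left out, 9 without mutant replicate 1 and 13 without mutant replicate 4.

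Interferon-inducible GTPases, which attack the vacuoles of intracellular microbes, rose in 6 of 14 cases and fell in none, with a median of 0.65. Gbp3, a guanylate-binding protein gene, was at -2.35, -1.96, -2.14 and -1.52 in wild type and at 0.26, -0.64, -0.07 and 0.49 in the mutant, a rise of 2.01 ± 0.24 (4.02-fold, adjusted p = 0.000377). The lowest mutant array lay 0.88 above the highest wild-type array. Gbp4 (0.97 ± 0.17), Gbp2 (0.96 ± 0.17), Irgm2 (0.84 ± 0.15), Gbp7 (0.71 ± 0.18) and Irgm1 (0.67 ± 0.14) rose as well. Leaving out mutant replicates 2 and 3 gave 4 of 14. Guanylate-binding protein genes are close in sequence, and sharing of signal between their probes was not tested.

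Antigen presentation genes were called in both MHC classes. MHC class I molecules show peptides from inside the cell, and 6 of 19 class I pathway genes rose and 0 fell (median 0.40). B2m, the light chain, was at 1.63, 2.04, 1.96 and 2.37 in wild type and at 3.11, 2.62, 2.75 and 2.82 in the mutant (0.82 ± 0.15, adjusted p = 0.0113). The heavy chains H2-K1 (0.58 ± 0.13), H2-D1 (0.54 ± 0.12) and H2-Q7 (0.50 ± 0.10) and the immunoproteasome subunits Psmb9 (0.72 ± 0.15) and Psmb10 (0.40 ± 0.08) rose without overlap. The class I count was 3 without mutant replicates 2 and 3, without mutant replicate 1 or without wild-type replicate 3, and 2 without wild-type replicate 1. MHC class II molecules, which present extracellular antigen on specialised cells, rose in 3 of 8 genes (median 0.70). H2-Ab1, the class II A beta chain, was at -0.43, -0.07, -0.55 and -0.13 in wild type and at 1.12, 0.68, 0.35 and 0.94 in the mutant (1.06 ± 0.18, adjusted p = 0.0065), and H2-Eb1 rose by 1.18 ± 0.22. Cd74, the invariant chain, was at 0.67 ± 0.32 with overlapping groups (adjusted p = 0.344).

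Macrophage and microglia genes were higher in several lists, and the largest single rise among them was in perivascular macrophage genes. Retnla, a resistin-like secreted protein of alternative macrophage activation, was at -3.55, -3.48, -3.88 and -2.39 in wild type and at -0.65, -0.13, -0.82 and -0.89 in the mutant (2.70 ± 0.31, 6.50-fold, adjusted p = 0.000316). Wild-type replicate 4 was the highest of its group but stayed 1.50 below the lowest mutant array. Pf4, a chemokine of platelets and tissue macrophages (1.28 ± 0.20), Mrc1, the mannose receptor (0.81 ± 0.20), and F13a1, a coagulation factor subunit (0.73 ± 0.16), rose with it, making 5 of 13 with Ccl8. When the arrays with the female pattern were left out 2 were called, and 3 were called without any 1 of mutant replicates 2 and 3 or wild-type replicates 1, 2 and 3. The scavenger receptor Cd163, chosen after its values were seen as a defining marker, was at -0.02.

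Of 22 activated macrophage genes, 8 rose and 0 fell (median 0.37). Aif1, the actin-binding protein IBA1 used to stain microglia, was at -1.60, -1.37, -1.62 and -1.15 in wild type and at -0.15, -0.52, -0.61 and -0.33 in the mutant (1.03 ± 0.13, adjusted p = 0.000685). Adgre1, which encodes the F4/80 antigen, rose by 1.09 ± 0.17 and its second probe, at 0.54, was not called. Itgax, the integrin CD11c, rose by 1.04 ± 0.20, Laptm5, a lysosomal membrane protein of blood cells, by 0.86 ± 0.14, and Ms4a7 by 0.86 ± 0.18. The count was 2 without mutant replicates 2 and 3 and 4 without mutant replicate 1, wild-type replicate 1 or wild-type replicate 3. Of 12 homeostatic microglia genes, Csf1r (0.73 ± 0.09, adjusted p = 0.000581), the receptor that microglia need to survive, P2ry13 (0.84 ± 0.15), Gpr34 (0.63 ± 0.16) and Selplg (0.62 ± 0.09) rose. The groups overlapped for Gpr34, which was called in 2 of the 8 fits without 1 array. The second probe of Selplg was at -0.02, and Selplg was not called on the mean of its probes (adjusted p = 0.197). P2ry12 (0.35 ± 0.35) and Tmem119 (0.43 ± 0.14), which are more restricted to microglia, were not called. The 3 probes of Csf1r ran from -0.49 to 0.94.

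Of 17 chemokine ligands 5 rose, and of 5 receptors 0 were called, with medians of 0.49 and 0.04. The difference between ligands and receptors was not tested. Cxcl10, an interferon-induced attractant of T cells, was at -3.97, -3.83, -4.62 and -4.23 in wild type and at -2.06, -2.66, -2.75 and -2.32 in the mutant (1.72 ± 0.35, adjusted p = 0.0177). Ccl12, a monocyte attractant, rose by 1.35 ± 0.22, Ccl8 by 1.45 ± 0.27, Ccl7 by 1.83 ± 0.39 (well above background on 1 of 4 wild-type arrays) and the neutrophil attractant Cxcl5 by 2.18 ± 0.43. Ccl2, the best known monocyte attractant, was not called (-0.17 ± 0.20, adjusted p = 0.749). Leaving out the arrays with the female pattern, or mutant replicate 1 alone, gave 3. Among complement genes C1qa (0.55 ± 0.12), C1qc (0.57 ± 0.13) and Cfb, the factor B of the alternative pathway (1.06 ± 0.18), rose, 3 of 17 in all. C1qb, the third chain of the same molecule, was at 0.23 ± 0.14 and did not pass. A single complement gene, 1 of 17, was called without mutant replicates 2 and 3, and likewise without mutant replicate 1, wild-type replicate 1 or wild-type replicate 3.

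Among named genes, 2 neutrophil genes rose the most, with wide spread. S100a8, a subunit of calprotectin, was at -4.67, -6.28, -6.19 and -5.78 in wild type and at -3.52, -3.59, -0.14 and -2.63 in the mutant. S100a9, the partner subunit, was at -2.75, -3.82, -3.72 and -4.07 in wild type and at -1.69, -1.79, 1.97 and -0.79 in the mutant. Mutant replicate 3 was far above the rest of its group in both, and wild-type replicate 1 was the highest of its group in both. The rises were 3.26 ± 0.71 (adjusted p = 0.0247) and 3.02 ± 0.73 (adjusted p = 0.0438). Neither was called without mutant replicates 2 and 3 (adjusted p = 0.124 and 0.174), nor without wild-type replicate 2 or 3. Of the 8 fits without 1 array, S100a8 was called in 6 and S100a9 in 2. The other 9 neutrophil genes were not called. No lymphocyte gene of 12 was called, with Cd3e at -0.06 ± 0.18 and Cd3g at -0.25 ± 0.25.

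**Figure D2:**
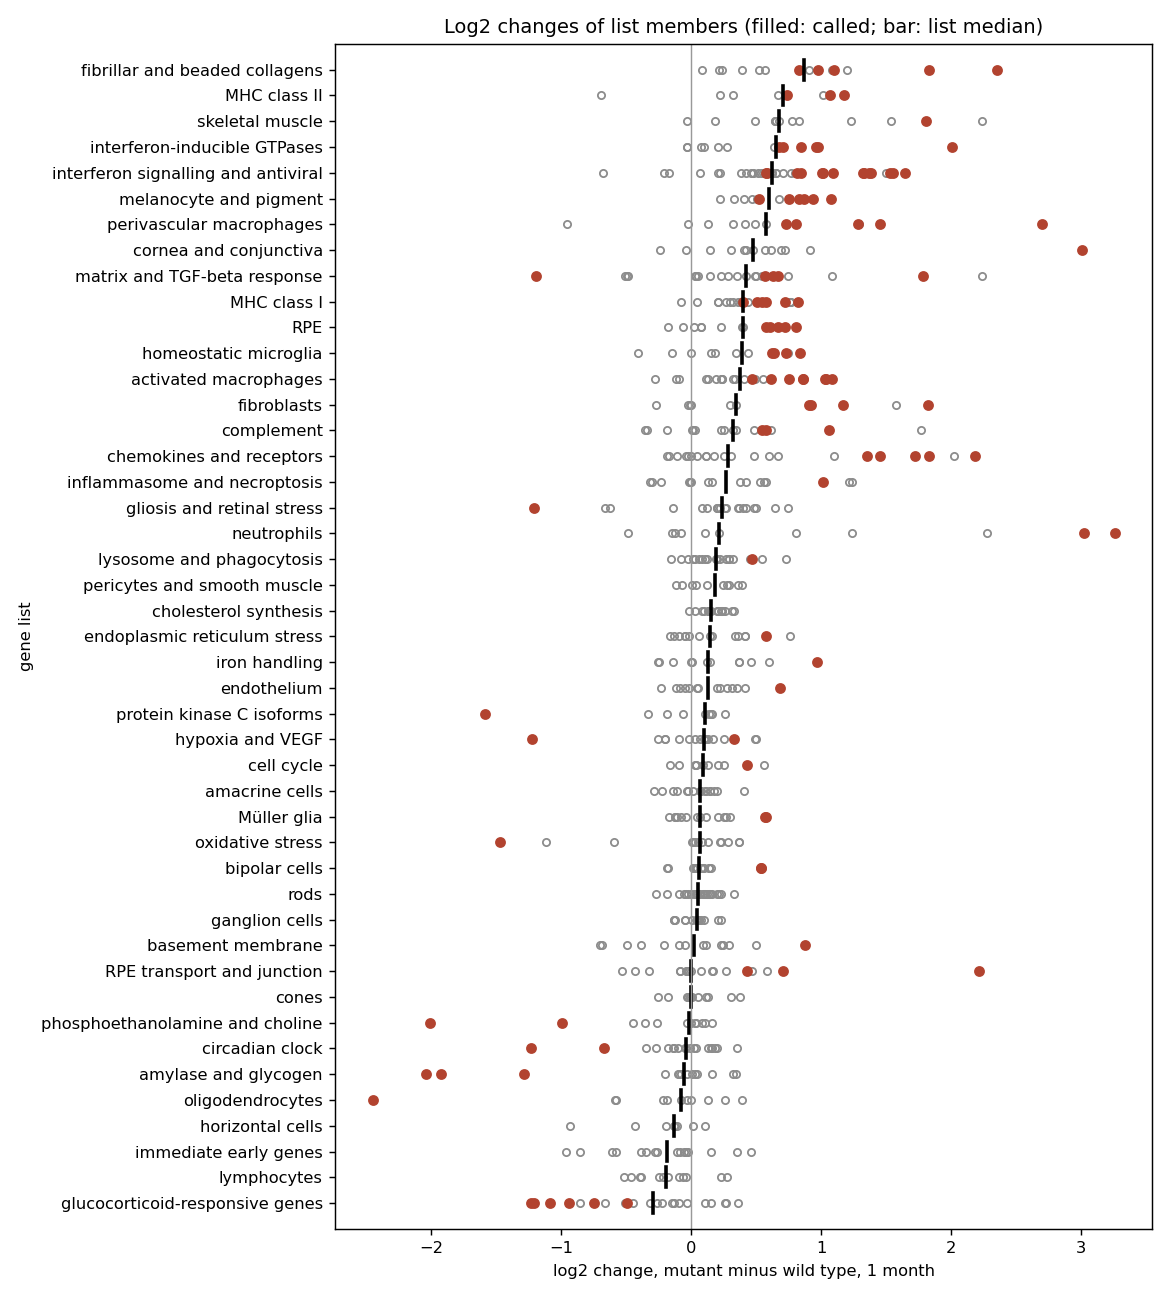
Log2 differences at 1 month, mutant minus wild type, of the tested members of 45 gene lists (all but erythrocytes and lens), ordered by the list median (black bar). Filled red points passed the test over all genes and open points did not. Fibrillar and beaded collagens lie highest with a median of 0.87, glucocorticoid-responsive genes lowest with -0.29, and rods and cones lie near 0 with no filled point.

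Collagen and matrix lists also held calls. All 14 fibrillar and beaded collagen genes tested had positive differences, 5 rose and the median was 0.87, the highest of the lists after erythrocytes. Col3a1, the main fibrillar partner of type I collagen in soft tissue, was at 0.08, 0.91, 0.55 and 0.99 in wild type and at 3.15, 3.22, 3.04 and 2.53 in the mutant. The lowest mutant array, replicate 4, lay 1.54 above the highest wild-type array, and the rise was 2.35 ± 0.21 (5.11-fold, adjusted p = 5.07e-05). Col14a1, a fibril-associated collagen, was at -1.75, -1.01, -1.52 and -1.05 in wild type and at 0.37, 0.63, 0.61 and 0.38 in the mutant (1.83 ± 0.19, adjusted p = 0.00016). Its second probe was at 0.70 and not called. Col5a2 (1.1 ± 0.21), Col8a1, a collagen of Descemet's and Bruch's membranes (0.98 ± 0.16), and Col5a1 (0.83 ± 0.16) also rose. Col1a1 did not pass (1.20 ± 0.34, adjusted p = 0.0834) although its groups did not overlap. The count was 2 without mutant replicates 2 and 3.

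Of 23 matrix and TGF-beta response genes, 4 rose and 1 fell. Postn, the matricellular protein periostin, was at -1.75, -0.88, -1.09 and -0.95 in wild type and at 0.72, 0.74, 0.68 and 0.31 in the mutant (1.78 ± 0.19, adjusted p = 0.000223). Fibronectin Fn1 (0.63 ± 0.16), fibrillin Fbn1 (0.67 ± 0.16) and Fbln2 (0.57 ± 0.14) rose. Ccn2, connective tissue growth factor and a standard TGF-beta and YAP target, went the other way, at 4.61, 4.88, 4.74 and 5.21 in wild type and 4.01, 3.55, 3.66 and 3.46 in the mutant (-1.19 ± 0.18, adjusted p = 0.00246). The counts were 1 higher and 0 lower without mutant replicates 2 and 3. Leaving out any single array kept 1 lower and gave 1 higher (mutant replicate 1 or 2, wild-type replicate 1 or 4), 2 (mutant replicate 3 or 4, wild-type replicate 2) or 3 (wild-type replicate 3). Of 11 fibroblast genes Dpt (1.82 ± 0.39), Lum (1.17 ± 0.27), Igfbp5 (0.92 ± 0.13) and Pi16 (0.90 ± 0.17) rose, and Dcn, the most widely used fibroblast marker of the list, was at -0.01 ± 0.21. Only 1 fibroblast gene was called without mutant replicates 2 and 3, and 2 without mutant replicate 1, 2 or 3 or wild-type replicate 1. Epyc, a small leucine-rich proteoglycan, was among the 12 largest rises (1.92 ± 0.31, adjusted p = 0.00522). Of 14 basement membrane genes Nid2 alone rose (0.87 ± 0.15), while Col4a1 (-0.70 ± 0.35) and Col4a2 (-0.69 ± 0.29) did not pass.

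RPE and pigment genes were modestly higher. Of 14 RPE genes 5 rose and 0 fell (median 0.40). Rlbp1, the retinaldehyde-binding protein, was at 3.79, 4.16, 4.05 and 4.24 in wild type and at 4.76, 4.65, 4.71 and 4.44 in the mutant (0.58 ± 0.10, adjusted p = 0.00592). Slc16a8, the lactate transporter of the RPE (0.80 ± 0.16), Ttr, the retinol carrier partner transthyretin (0.72 ± 0.15), Rdh5, the 11-cis retinol dehydrogenase (0.66 ± 0.16), and Sulf1 (0.60 ± 0.11) rose without overlap. The isomerase Rpe65 (-0.18 ± 0.17) and the acyltransferase Lrat (0.02 ± 0.20), which make up the central steps of the visual cycle, were not called. Of 19 genes of RPE transport and junctions 3 rose: Bsg, the chaperone of lactate transporters (0.43 ± 0.11), Cdh3, a cadherin (0.70 ± 0.14), and Atp1b4. Atp1b4 was not well above background on any wild-type array, was so on all 4 mutant arrays, and was at least 1.73-fold higher (adjusted p = 0.0113). Atp1b1, a beta subunit of the sodium pump, was not called (0.08 ± 0.14). The count of 3 was 0 without mutant replicates 2 and 3 and 1 without mutant replicate 1.

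All 12 pigment genes had positive differences and 6 rose (median 0.60). Pmel, the fibril protein of melanosomes, was at 3.24, 3.61, 4.05 and 4.00 in wild type and at 4.94, 4.16, 4.60 and 4.95 in the mutant (0.94 ± 0.22, adjusted p = 0.0342). Tyrp1 (0.83 ± 0.20), the tyrosinase gene Tyr (0.52 ± 0.12), Slc45a2 (1.07 ± 0.21), Gpr143 (0.86 ± 0.19) and Rab38 (0.75 ± 0.17) completed the 6. These calls leaned on single arrays: wild-type replicate 1 was the lowest of its group for Pmel, Tyrp1, Slc45a2, Gpr143, Rab38 and Tyr, and without it 0 pigment genes and 2 RPE genes were called. The pigment and RPE counts were 2 and 0 without mutant replicates 2 and 3, 0 and 2 without mutant replicate 1, and 1 and 3 without mutant replicate 3. Leaving out mutant replicate 4 gave 2 pigment calls, and leaving out wild-type replicate 2 gave 1. The list mean of pigment genes ran from 1.00 to 1.64 in wild type and from 1.76 to 2.27 in the mutant.

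**Figure D3:**
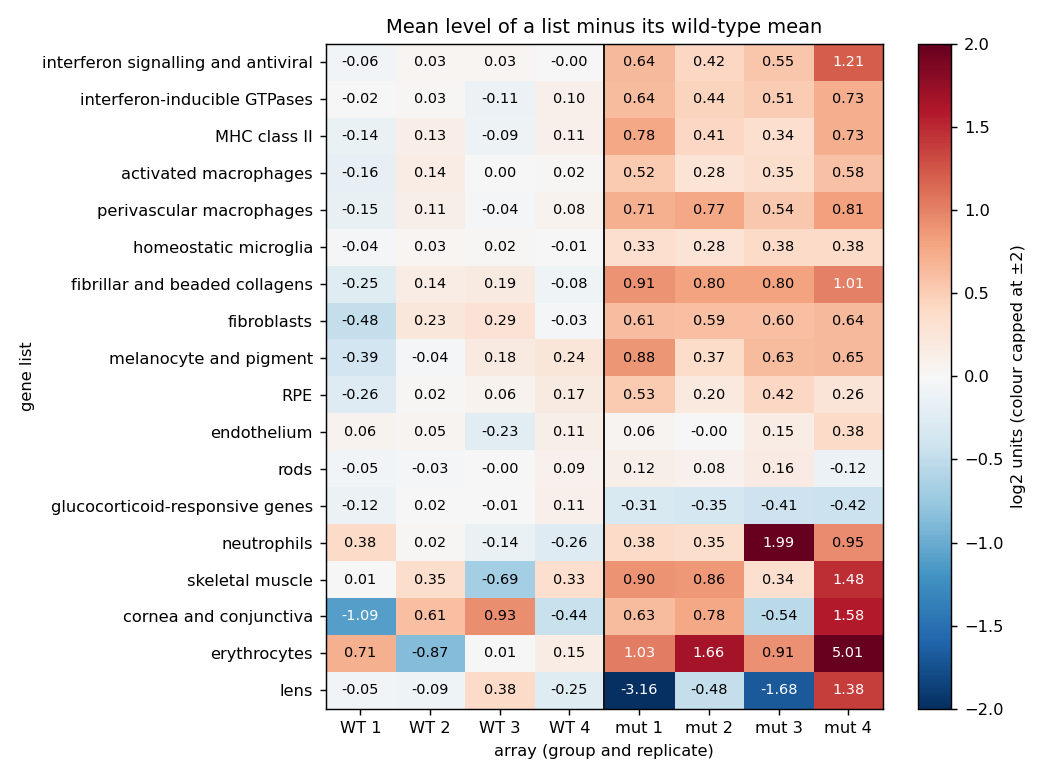
Mean level of 18 gene lists on each 1-month array, minus the mean of the 4 wild-type arrays, in log2 units. Immune, collagen and pigment lists are positive on all 4 mutant arrays, while erythrocyte genes reach 5.01 on mutant replicate 4 and neutrophil genes 1.99 on mutant replicate 3, beyond or near the colour limit of 2.

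Several of these lists were higher together with lists of non-neural tissue. When the array mean of the RPE, pigment, matrix and endothelial lists was entered as a covariate, 16 genes were called, 2 higher and 14 lower, and 13 of these were among the 518. No member of the interferon, MHC, macrophage, chemokine, collagen, RPE or pigment lists was called higher in that fit, and the interferon and GTPase medians were 0.35 and 0.48. The falls of Omg (-2.42), Etnppl (-1.87), Prkcq (-1.89), Gaa (-1.36), Selenbp1 (-1.40), Sult1a1 (-1.49) and Adamts18 (-1.88) and the rise of Cuedc1 (2.21) were called with it. The covariate holds several of the genes tested and is itself higher in the mutants, so genotype and tissue content cannot be told apart here for the genes that lost their call.

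Neurons and glia showed few calls. No gene was called among 24 rod, 12 cone, 16 amacrine, 8 horizontal and 15 ganglion cell genes, with medians of 0.06, 0.00, 0.07, -0.13 and 0.04. The cone opsins Opn1mw and Opn1sw were at -0.25 ± 0.13 and 0.12 ± 0.15. Of 16 bipolar cell genes 2 rose, both of the ON pathway: Grm6, the glutamate receptor of ON bipolar dendrites, was at 3.43, 3.35, 3.24 and 3.25 in wild type and at 3.77, 3.89, 4.05 and 3.72 in the mutant (0.54 ± 0.10, adjusted p = 0.0147), and Nyx, nyctalopin, rose by 0.54 ± 0.13 (adjusted p = 0.0392). Both were highest in the mutant on arrays with the female sex pattern, Nyx is on the X chromosome, and without mutant replicates 2 and 3 neither was called. Of the 8 fits without 1 array, Grm6 was called in 8 and Nyx in 1. Of 15 Müller glia genes Rlbp1 and Abca8a (0.57 ± 0.13, called in 1 of those 8 fits) rose, and Glul, the glutamine synthetase gene, was at 0.07 ± 0.10. Of 20 gliosis and retinal stress genes none rose and Cebpd fell. Gfap was at -0.63 ± 0.26 (adjusted p = 0.263) and Edn2, a photoreceptor injury signal, at 0.50 ± 0.27 (adjusted p = 0.4).

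Vascular and hypoxia genes gave a few calls. Kdr, the main receptor for vascular endothelial growth factor, was at 2.52, 2.49, 2.40 and 2.48 in wild type and at 3.12, 3.23, 3.29 and 3.0 in the mutant (0.68 ± 0.09, adjusted p = 0.00138). It was the only one of 14 endothelial genes called, with Pecam1 at -0.02 ± 0.14 and Cdh5 at 0.41 ± 0.16, and its second probe gave 0.13. Vegfc, a lymphatic growth factor, rose by 0.33 ± 0.08 (adjusted p = 0.0422). Egln1, the oxygen sensor that marks HIF proteins for degradation, was at -2.07, -1.41, -1.80 and -1.91 in wild type and at -2.66, -3.13, -2.82 and -3.46 in the mutant (-1.22 ± 0.17, adjusted p = 0.00159). The other 15 of 17 hypoxia and VEGF genes were not called. In other stress lists 1 gene each was called: Calr, a chaperone of the endoplasmic reticulum (0.58 ± 0.10), Ripk3, a kinase of necroptosis (1.01 ± 0.25), Hexa, a lysosomal hexosaminidase (0.46 ± 0.10), Trf, the iron carrier transferrin (0.97 ± 0.16), and Mcm2, a DNA replication helicase subunit (0.43 ± 0.10). In the 8 fits that left out 1 array, Vegfc and Ripk3 were called in 1 each, Mcm2 in 2 and Hexa in 3. Kdr, Egln1, Calr and Trf were called in all 8. None of 17 cholesterol synthesis genes was called, although 16 had positive differences (median 0.15).

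Large rises outside these themes included epithelial and immune receptor genes. Krt23, a keratin of simple and reactive epithelia, was at -2.82, -1.23, -1.65 and -1.37 in wild type and at 1.41, 0.85, 1.54 and 1.14 in the mutant (3.0 ± 0.44, 8.03-fold, adjusted p = 0.00234). The cornea and conjunctiva list that holds it had 1 call in 13, and Krt12 and Krt5, the corneal and basal keratins, were at -0.24 ± 1.34 and 0.41 ± 0.97. Pirb, an inhibitory immune receptor that binds MHC class I, was at -3.66, -3.63, -3.73 and -3.42 in wild type and at -2.34, -2.31, -2.20 and -2.06 in the mutant (1.38 ± 0.13, adjusted p = 6.49e-05). Acta1, skeletal muscle actin, rose by 1.81 ± 0.39. The muscle kinase gene Ckm was at 0.68 ± 0.44, and the mean of the 13 skeletal muscle genes ran from 0.61 to 1.64 in wild type and from 1.63 to 2.78 in the mutant. The part of muscle tissue in the rise of Acta1 was not tested.

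Calls were unevenly spread over the genome. Chromosome 11 held 72 of its 1506 tested genes (4.78%) and chromosome 8 held 40 of 950 (4.21%), against 2.72% over all chromosomes. Chromosome 3 followed with 35 of 910 (3.85%) and the X chromosome with 26 of 714 (3.64%). Of the 26 on X, 25 were higher, against 74.5% of all calls. Mutant replicates 2 and 3 had the female pattern and no wild-type array did, and the X count was not recounted without them. Chromosome 11 carried several of the firmest calls in both directions: Omg, Gaa, Per1 and Pnpt1, a mitochondrial RNA nuclease (-0.97 ± 0.09), were lower, and Cuedc1, Myl4 and Scpep1, a serine carboxypeptidase (0.92 ± 0.10), higher. Cuedc1, a ubiquitin-binding CUE domain gene, was at -0.44, -0.63, -0.62 and -0.97 in wild type and at 1.31, 1.37, 1.50 and 1.12 in the mutant (1.99 ± 0.13, adjusted p = 1.12e-06). Myl4, the atrial and embryonic myosin light chain, was at -1.45, -1.42, -1.38 and -1.27 in wild type and at 0.25, 0.34, -0.14 and 0.22 in the mutant (1.55 ± 0.17, adjusted p = 0.00027). Both were separated by over 1 log2 unit between groups. Pnpt1 had 2 probes of opposite sign, -0.97 and 0.65, both called.

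At the end of chromosome 8, from Klhdc4 to Kcnk1 in RefSeq gene order, 22 of 75 tested genes were called (29.3%), 9 higher and 13 lower. This run was noticed in these data, by a scan for windows of 15 neighbouring genes with at least 4 calls. It was cut at its first and last called genes and held 22 of 83 before that, so its share is raised by the way it was chosen. Other runs found by the scan included 10 of 67 genes on chromosome 13, all higher, and 10 of 38 on chromosome 11. The 10 called on chromosome 13 were all histone genes. Of 64 histone genes tested, a group chosen after its values were seen, 15 rose and 0 fell, against 2.03% of all genes that rose. Of the 15, 10 were on chromosome 13 and 4 on chromosome 3. Sharing of signal between probes of related histone genes was not tested. In the chromosome 8 run, the largest differences beside Egln1 and Acta1 were chosen after their values were seen. They were those of Dpep1, a membrane dipeptidase (-1.12), Fam89a (-0.95), Cpne7 (-0.78), Kcnk1, a potassium channel (-0.73), Rhou (-0.68) and Trim67 (0.66). Of the 22, 21 had the same sign at 1 year, where Klhdc4, Slc7a5, Rnf166, Ccsap, Trim67, Egln1 and Tsnax were called. The 1-year arrays are of other mice. The labels give no breeding history.

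**Figure D4:**
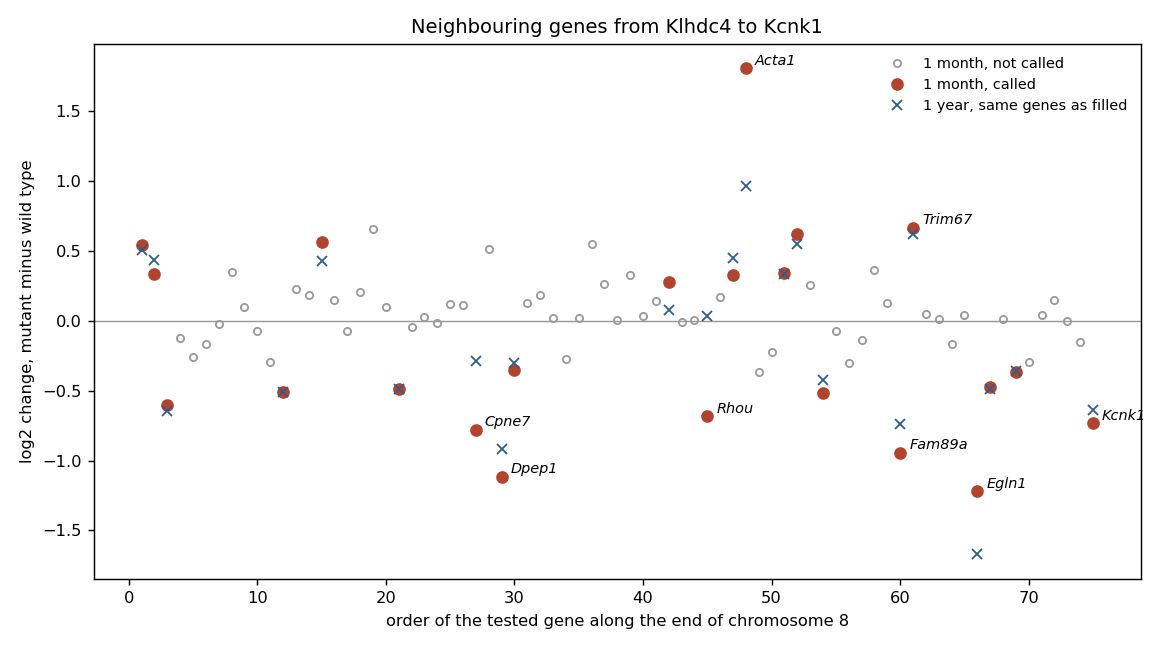
Log2 differences, mutant minus wild type, of the 75 tested genes from Klhdc4 to Kcnk1 in RefSeq gene order along the end of chromosome 8. Red points are the 22 genes called at 1 month, open points were not called, and blue crosses give the called genes at 1 year, which lie on the same side of 0 for 21 of 22.

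Probes with no gene in the reference table were tested too. Over all 49228 probes bright enough to be tested, 532 were called (1.08%), 378 higher and 154 lower. Leaving out 1 of mutant replicates 1 to 3 or wild-type replicates 1 to 3 gave 210 to 285 called probes, and leaving out mutant replicate 4 gave 1622. Of the 24155 with no gene, 158 were called (0.654%), 92 higher (0.381%) and 66 lower (0.273%). Among 620 probes designed to unannotated transcribed regions of chromosome 11, 27 were called (4.35%), against 0.639% of region probes on all chromosomes. Chromosome 3 followed with 12 of 722 (1.66%), and chromosome 8 had 1 of 881. The largest rise was in a probe for chr8:130666467-130821034 (mm9, minus strand per the probe design), at -6.50, -7.29, -6.14 and -6.78 in wild type and at -1.48, -1.32, -1.38 and -1.61 in the mutant. It was well above background on no wild-type array and was at least 27.7-fold higher (adjusted p = 1.07e-06). A probe for chr11:87872568-87880978 (mm9, minus strand) was at -4.81, -4.63, -5.02 and -4.56 in wild type and at -1.29, -1.24, -1.39 and -1.34 in the mutant (3.44 ± 0.19, adjusted p = 2.14e-07), and all 4 probes of that region were called higher.

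Chromosome 11 held 20 of the called falls of such probes, chromosome 2 held 6, and other chromosomes 3 or fewer each. A probe for chr11:69196530-69197001 (mm9, plus strand) went from 0.69, 0.33, 0.17 and 0.07 in wild type to -2.67, -2.74, -2.55 and -2.83 in the mutant (-3.01 ± 0.38, adjusted p = 0.000972). In 2 overlapping designs, chr11:112898724-113062945 and chr11:112905201-113062945 (mm9, minus strand), 6 of 8 and 3 of 3 probes were called lower, with medians of -1.62 and -2.51. In chr11:95627874-95640824 (minus strand) 6 of 9 were called lower. No gene is named for these regions here.

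The 1-year arrays, of other mice, allow the 1-month differences to be set beside those of a later age. In the model the same estimate of spread per gene served both ages, so the calls at the ages are not independent of each other. Of the 518 genes, 50 were also called at 1 year, where 163 genes were called in all (0.857%), and 48 of the 50 had the same sign. Of the 386 genes higher at 1 month 64.8% were positive at 1 year, against 47.2% of all genes, and of the 132 lower 75.8% were negative, against 52.8%. Chromosome 11 held 17 of the 50 genes called at both ages (34% of them, with 7.92% of the genes tested), and Omg (-2.19 at 1 year), Prkcq (-1.87), Gaa (-1.39), Egln1 (-1.67), Cuedc1 (2.17), and Myl4 (1.37) were among those called with the same sign.

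The difference between the genotype effects of the 2 ages was tested directly and was called for 80 genes (0.421%), 57 of them among the 518. Leaving out mutant replicate 1 or 3 gave 33 or 46 such genes, and wild-type replicate 1, 2 or 3 gave 45, 43 or 47. Leaving out mutant replicate 4 gave 150. Without mutant replicates 2 and 3 and the 1-year mutant array of female pattern, which enters this difference directly, 12 were called. Pirb differed most clearly, with 1.38 at 1 month and -0.51 at 1 year (difference -1.90 ± 0.18, adjusted p = 0.000438). The macrophage-expressed receptor gene Cd300c2 (0.70 and -0.26) and the secreted phospholipase gene Pla2g2e (1.07 and -0.39) behaved alike, as did Apln, a vascular peptide (1.09 and -0.67). Collagens did so too: Col3a1 was at 2.35 and 0.23 (difference -2.13, adjusted p = 0.00678) and Col14a1 at 1.83 and 0.01 (adjusted p = 0.0087). Among falls, Selenbp1 went from -1.47 at 1 month to -0.12 at 1 year (adjusted p = 0.00452), Folh1 from -1.47 to -0.14 and Etnppl from -2.01 to -0.71. Lalba, the milk protein alpha-lactalbumin, was higher by 0.50 at 1 month and 1.67 at 1 year (adjusted p = 0.00245).

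As lists, the antiviral median was 0.62 at 1 month and 0.26 at 1 year, that of the GTPases 0.65 and 0.02, that of collagens 0.87 and -0.02 and that of pigment genes 0.60 and -0.37. No member of the antiviral, GTPase, MHC, collagen, RPE or pigment lists was called at 1 year. Of the named members of these lists, the difference between ages was called for Gbp3, B2m, H2-Ab1, H2-Eb1, Col3a1, Col14a1, Tyrp1 and Slc45a2. No member of the antiviral list and none of the RPE list had a called difference, so a change with age was not shown for them. Gliosis genes ran the other way, with a median of 0.24 at 1 month and 0.61 at 1 year, where 6 of 20 were called higher. Of 12 homeostatic microglia genes 4 were called higher at 1 month and 4 at 1 year, with P2ry13 (0.84 and 0.74) and Gpr34 (0.63 and 0.75) called at both ages.

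**Figure D5:**
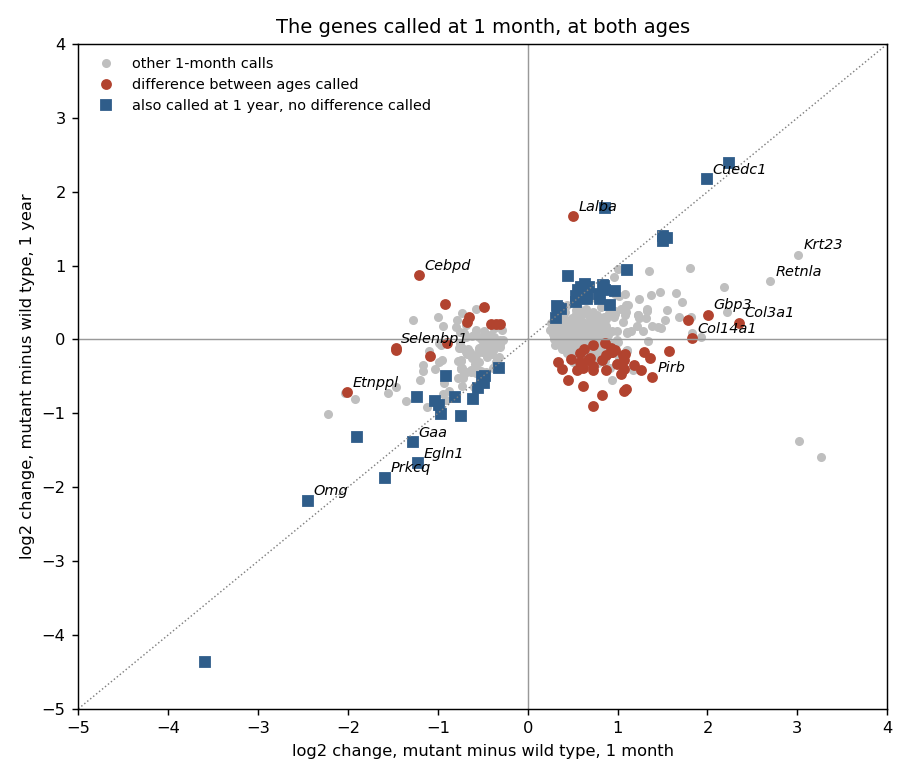
Log2 differences between mutant and wild type at 1 month (horizontal) and 1 year (vertical) for the 518 genes called at 1 month, with the line of equal effect dotted. Blue squares were also called at 1 year with no called difference between ages and lie near the line, and red points are the 57 genes whose genotype effects differed between the ages.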

How the data were processed

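RNA was measured on single-colour Agilent arrays, 1 per sample. Per the file headers, each deposited scanner file gives the fluorescence intensity of every spot after background subtraction and detrending by Agilent Feature Extraction (version 11.0.1.1, also in the submitters' processing notes). A log2 matrix that the authors deposited, quantile normalized as its values show, served as an alternative. The probe design uses build mm9, per the file headers.

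Control spots and outlier-flagged spots (93 to 136 per array) were left out. From log2 of the processed intensity each array's 75th percentile was subtracted, and spots of a probe were averaged, for 55681 probes. Accessions were matched to the RefSeq table of GRCm38.p6 (names and gene order only): 27235 probes had 1 gene each and 28446 none. A probe was kept when 4 or more of the 16 arrays showed it well above background (49228 probes), and the probe with the highest mean stood for a gene.

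In R 4.3.3, with limma 3.58.1, a linear model with 4 group means was fitted over all 16 arrays, with two-sided tests adjusted over 19021 genes. Adjusted p-values are from it unless another fit is named, and it was tested on simulated data. The simulated noise was independent between genes and arrays. It held no shared differences of tissue, sex or array position, so it cannot show how the fit behaves with them. A lower bound in place of a fold compares the mutant mean with, per wild-type array, the higher of the lowest signal well above background and the probe's own. The labels give 4 mice per genotype and age.

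The 47 gene lists hold 740 entries (723 genes, 704 tested). Members and lists were chosen with earlier results of these data known, so counts within lists are descriptions. Genes are named by rule: the 12 largest non-overlapping folds and 8 smallest adjusted p in each direction without clone names, the first 2 members of each list and up to 6 further called ones, the 6 clearest differences between ages among the calls, and 4 unnamed probes in each direction. Some genes that the rule names are not reported here.

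The arrays lie on 2 slides, with 2 of each group on each. Array row was not balanced between the genotypes at 1 month. Mutant replicates 1, 3 and 4 and wild-type replicate 1 lay in row 2. Mutant replicate 2 and wild-type replicates 2, 3 and 4 lay in row 1. On slide 2 both 1-month mutants were in row 2 and both 1-month wild types in row 1, so row and genotype cannot be told apart there. Alternatives changed the background correction, scaling, probe filter, probe choice, slide, array row, replicate block, sex pattern, tissue content, moderation and arrays used.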

Additional observations from a re-analysis of the deposited data

Results flagged for a closer look

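For 19 of 350 groups of 4 arrays, 1 array of a named gene lay apart from the other 3 by more than Dixon's critical value. Chance flags about 1 group in 20. Among mutant arrays, replicate 4 was low for 4 genes: Postn (0.31, next 0.68), Gad1 (2.83), Slc17a6 (0.62) and Arntl (1.84). Replicate 1 was low for Fn1 (2.33) and Edn2 (-1.93, next -0.90) and high for Adgre1 (-1.82). Replicate 2 was low for Itgax (-5.23), and replicate 3 was low for Ddx4 (-5.83, next -4.56). Among wild-type arrays, replicate 1 was high for Lalba (-1.78) and low for Slc16a8 (0.71). Replicate 2 was low for Selenbp1 (2.65) and high for Pi16 (2.87). Replicate 3 was low for Irgm1 (-0.94) and Rgs5 (0.057). Replicate 4 was low for Cxcl5 (-6.32, next -4.83) and high for Ccl12 (-3.77), Pdgfrb (0.59) and Opn1mw (3.98).

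For 27 named genes the genotype effect at 1 year minus that at 1 month passed limma's test of that difference over all genes. Negative differences were found for immune genes: Pirb (-1.90), Pla2g2e (-1.46), Cd300c2 (-0.95), Itgax (-1.51), Adgre1 (-1.29), Gbp3 (-1.67), B2m (-1.10), H2-Ab1 (-1.27) and H2-Eb1 (-1.52). Matrix and vessel genes were Col3a1 (-2.13), Col14a1 (-1.82), Postn (-1.52), Igfbp5 (-1.03), Nid2 (-1.08) and Apln (-1.76). Pigment genes were Tyrp1 (-1.58) and Slc45a2 (-1.78), and single genes were Calr (-0.75) and Gnat1 (-0.55). Positive differences were found for Edn2 (3.56), Cebpd (2.08), Selenbp1 (1.35), Folh1 (1.33), Etnppl (1.295), Lalba (1.17), Ciart (0.91) and Sult1a1 (0.87). Edn2 and Gnat1 were not called at 1 month.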

How the results depend on the processing

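Against 518 genes, 599 were called with normexp and quantile normalization, 585 in the deposited matrix, 431 without the filter on dim probes and 498 with slide as a block. Of the 518, these fits kept 424, 449, 427 and 459, in that order. Fewer were called without the arrays of female pattern (133), with that pattern as a covariate (244), from the 1-month arrays alone (161), on slide 1 (1 gene) or slide 2 (17) alone and with the tissue covariate (16). With array row as a covariate 522 were called, 64.2% of them higher, but only 377 of the 518 were among them. Leaving out 1 array gave 227 to 931. The 518 kept their direction in every alternative that tested them, except 3 with the tissue covariate. The probe count of 532 was 147 from the 1-month arrays alone, 288 with the female pattern as a covariate, 121 without those arrays and 210 to 1622 without 1 array. The 80 differences between ages were 12 without the female-pattern arrays and 33 to 150 without 1 array. With the tissue covariate Mrc1 reversed, to -0.055. The cause of these moves was not tested, but the fits on fewer arrays have fewer samples. With the replicate block 311 genes, 316 probes and 43 differences were called. Same-numbered arrays correlated at -0.36, 0.06, -0.17 and -0.54 in their deviations. These values gave no sign that the numbers pair samples, but such few correlations cannot exclude it.

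Of 118 named genes called, 69 held in each fit without 1 array and 76 with the female pattern as a covariate. Without the arrays of that pattern 58 held, and with the tissue covariate 8. In every alternative 0 held: the fits within a slide called few genes, and these other fits also lost many of the calls.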
